A study of Mus musculus with 2 samples.

Results

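The nuclear-encoded subunits of the oxidative phosphorylation complexes were followed across the leukocytes of mouse melanomas. They were chosen by gene symbol: the Ndufa, Ndufb, Ndufc, Ndufs and Ndufv genes of complex I, the Uqcr genes of complex III, the Cox4 to Cox8 genes of complex IV and the Atp5 genes of complex V, leaving out Cox6a2 and all mitochondrially encoded genes. Of 83 genes with such a symbol, 78 had at least 100 UMIs (unique molecular identifiers, each counting 1 captured transcript) over the 8 deposited matrices and are the members described here, out of 32432 genes measured. They comprise 38 genes of complex I, 8 of complex III, 15 of complex IV and 17 of complex V. The 5 genes below the minimum were Ndufb11b, with 2 UMIs, and Cox7b2, Cox8b, Cox8c and a second gene named Atp5o. Just inside it were Ndufa4l2 with 194 UMIs, Cox5b-ps with 624 and Cox4i2 with 906. Cox5b-ps is named as a pseudogene of Cox5b, so its counts are uncertain, and reads shared between any other member and a near-identical copy elsewhere in the genome cannot be told apart from these counts.

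Oxidative phosphorylation takes place in the inner mitochondrial membrane. Complexes I, III and IV pass electrons from NADH to oxygen and pump protons, and complex V, the ATP synthase, lets the protons back and makes ATP. Most subunits are encoded in the nucleus and imported, and a small set, including the cores of complexes I, III and IV, is encoded by mitochondrial DNA, so each complex is built from 2 genomes. Activated lymphocytes are known to build mitochondria as they grow and divide, whereas neutrophils are known for few mitochondria and a reliance on glycolysis.

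Live CD45+ leukocytes were enriched with beads and sorted from B16-F10 tumours, a mouse melanoma line, and their transcripts were read from the 3' end in droplets. Male mice aged 8 to 12 weeks had received 1000 tumour cells in Matrigel in the skin of both legs. The Trex1 iKO group had the genotype Trex1 fl/fl-R26CreERT2-ki/wt and the Trex1 control group Trex1 wt/fl-R26CreERT2-ki/wt, so controls also carry the tamoxifen-activated Cre and 1 conditional allele of Trex1, which encodes a DNA exonuclease. Tamoxifen, 1 mg a day, was given to both groups for 3 days, the first being day 5, and day 14 was the day of harvest. The Cre sits in the broadly active Rosa26 locus, so no cell type of the mouse was targeted in particular, and the injected tumour cells do not carry these alleles. Each genotype was run as 1 pool of 4 hashtagged samples, here iKO1 to iKO4 and control1 to control4, and genotype and pool cannot be told apart in any comparison. The labels do not say whether each hashtagged sample is 1 mouse, so p-values measure the spread between these samples, which may in part be technical.

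The matrices held 23731 cell barcodes, of which 22026 remained after filtering. Median UMIs per barcode were 12535 to 14221 in the iKO samples and 5794 to 11490 in the controls. Trex1 itself had 2 UMIs in control2 and 0 in the other 7 samples, so its counts could not check the genotypes. No barcode was shared between samples of 1 pool, and 45 were shared between the pools. Cells were assigned to types by gates on marker UMIs, which placed 18349 cells. The 3677 ungated cells were 11.7% of iKO and 24.1% of control cells. The labels call the sorted cells lymphocytes, yet the largest gate was monocyte/macrophages with 8500 cells, ahead of CD8 T cells with 4845. Cd3e had a UMI in 99.2% of gated CD8 T cells and in 10.5% of monocyte/macrophages, and Cd79a in 99.9% of B cells and 1.22% of CD8 T cells. Csf1r had a UMI in 95.4% of monocyte/macrophages and 28.1% of neutrophils, and Csf3r in 93.6% of neutrophils but also in 43.7% of monocyte/macrophages. The gates were defined on UMIs of such markers, so these shares are in part set by the gate. Lyz2, a myeloid gene, had a UMI in 80.6% of CD8 T cells and 74.8% of B cells, and S100a8, a neutrophil gene, in 49.3% of B cells, and the part of RNA from other cells in the values below was not tested.

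Neutrophils and B cells gave the smallest shares of their transcripts to the 78 members. Summed over all members, neutrophils held 75.9 to 108 UMIs per 10000 UMIs (median 91.0, n = 8 samples). B cells held 145 to 174 (median 151), and mature dendritic cells, marked by Ccr7 and Fscn1, 184 to 208 (median 197). The ranges of neutrophils and B cells did not overlap, nor did those of B cells and mature dendritic cells, while gamma-delta T cells, at 168 to 203 in 3 samples, reached into the B cell range. All gates above these overlapped with their neighbours in the order. Medians ran from 197 in gamma-delta T cells through 214 in CD4 T cells, 228 in plasmacytoid dendritic cells (pDC, n = 4), 235 in natural killer (NK) cells (n = 4), 243 in monocyte/macrophages, 245 in CD8 T cells, 246 in cDC2 (n = 6) and 247 in cDC1 to 257 in regulatory T cells (Treg), and differences between such neighbours were no larger than their spread over samples. Cycling CD8 T cells, gated on proliferation markers such as Mki67, ran from 274 to 302. The plot of summed member UMIs by cell type shows these values for each sample.

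**Figure D1:**
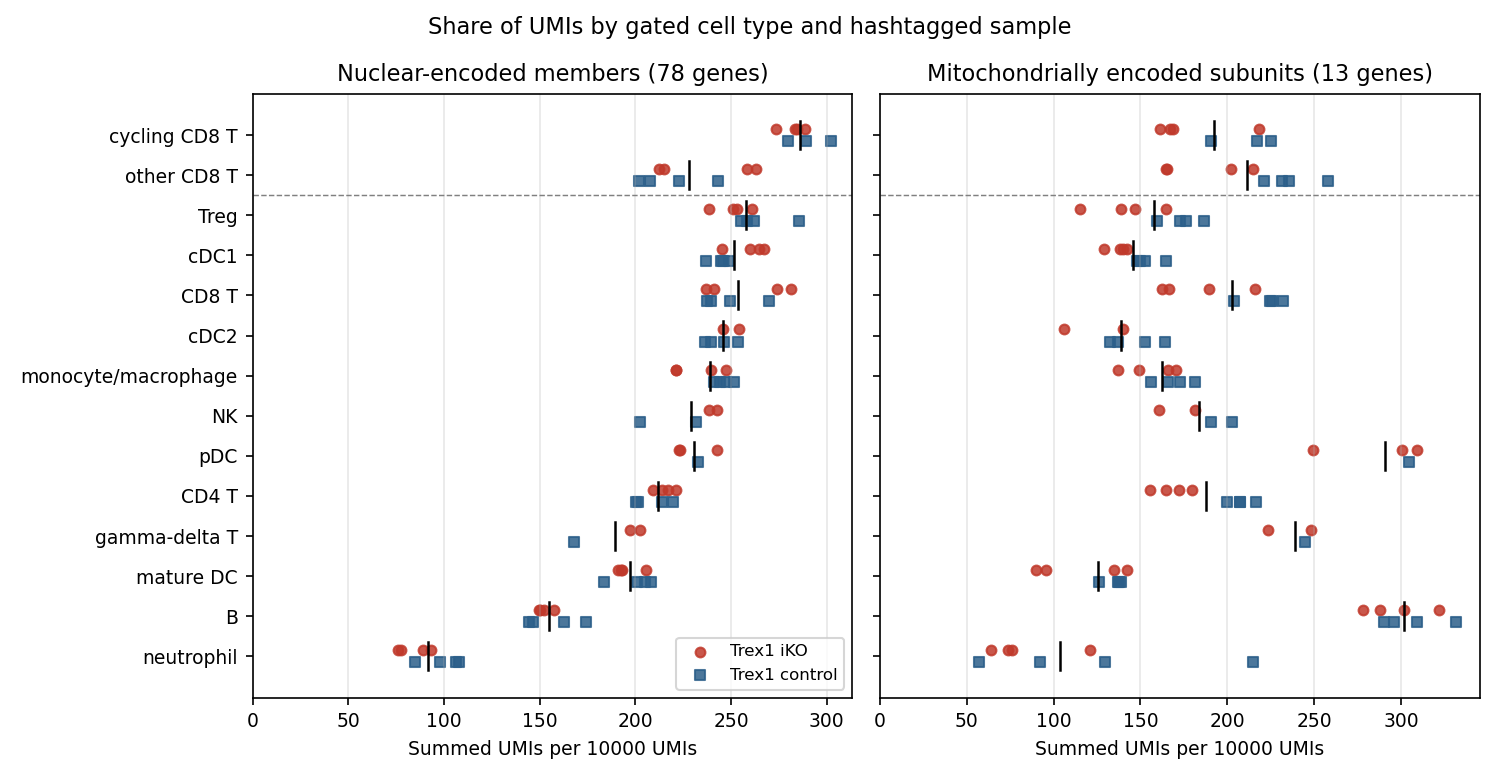
Summed UMIs per 10000 UMIs (x axis) of the 78 nuclear members and of the mitochondrially encoded subunits in each gate (y axis), with 1 point per hashtagged sample, genotype by colour and marker, and a bar at the mean. For the nuclear members neutrophils (75.9 to 108) lie below all other gates and B cells (145 to 174) come next, overlapping with gamma-delta T cells (168 to 203), while B cells (278 to 332) are among the highest for the mitochondrially encoded subunits.

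In each of the 4 complexes neutrophils had the lowest median and B cells the next lowest. Complex I members summed to a median of 26.9 UMIs per 10000 in neutrophils, 48.6 in B cells, 75.0 in monocyte/macrophages and 78.7 in Treg. Complex V members summed to 27.0, 47.6, 76.4 and 81.0 in these gates. The mitochondrially encoded subunits did not follow the nuclear ones: they summed to 278 to 332 UMIs per 10000 in B cells and 249 to 309 in pDC, against 163 to 232 in CD8 T cells and 137 to 182 in monocyte/macrophages, while neutrophils ran from 56.9 to 215. Messages for cytosolic ribosomal proteins took up a changing part of each total, from 327 to 643 per 10000 in neutrophils to 3078 to 3260 in B cells. With mitochondrial and ribosomal protein genes left out of the total, the mean member share was 238 per 10000 in B cells, 246 in mature dendritic cells, 293 in monocyte/macrophages and 376 in CD8 T cells. B cells and mature dendritic cells were then close together and CD8 T cells stood above monocyte/macrophages. Gates also differed in depth: median UMIs per cell were 3575 to 8611.5 in neutrophils, 3628 to 4905 in B cells, 8069.5 to 18301.5 in CD8 T cells and 13306 to 16408 in monocyte/macrophages.

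Most members moved together across cell types. Over the 12 gates, the mean log2 level of a member correlated with the summed level of all other members with a median Pearson r of 0.91, and 62 of the 78 members had an r over 0.8. This is a description over 12 points that share libraries, depth and the composition of each total. The lowest gate was the neutrophil for 67 members and the B cell for 7. The highest gate was Treg for 23 members, cDC1 for 14, cDC2 and pDC for 10 each, monocyte/macrophages for 8 and CD8 T cells for 7. The most alike profiles were those of Cox7b (r = 0.98), a small complex IV subunit, Atp5c1 (r = 0.98), the gamma subunit that turns inside the ATP synthase, and Cox6c (r = 0.98). Apart from the pseudogene Cox5b-ps (r = 0.35), the least alike among members found in every gate were Cox7a2l (r = 0.55), which is known as a factor that joins complexes III and IV into supercomplexes, Uqcrh (r = 0.57), the hinge protein of complex III, Ndufs1 (r = 0.58), the largest iron-sulfur subunit of complex I, Ndufa6 (r = 0.62), an accessory complex I subunit, and Ndufb9 (r = 0.65).

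**Figure D2:**
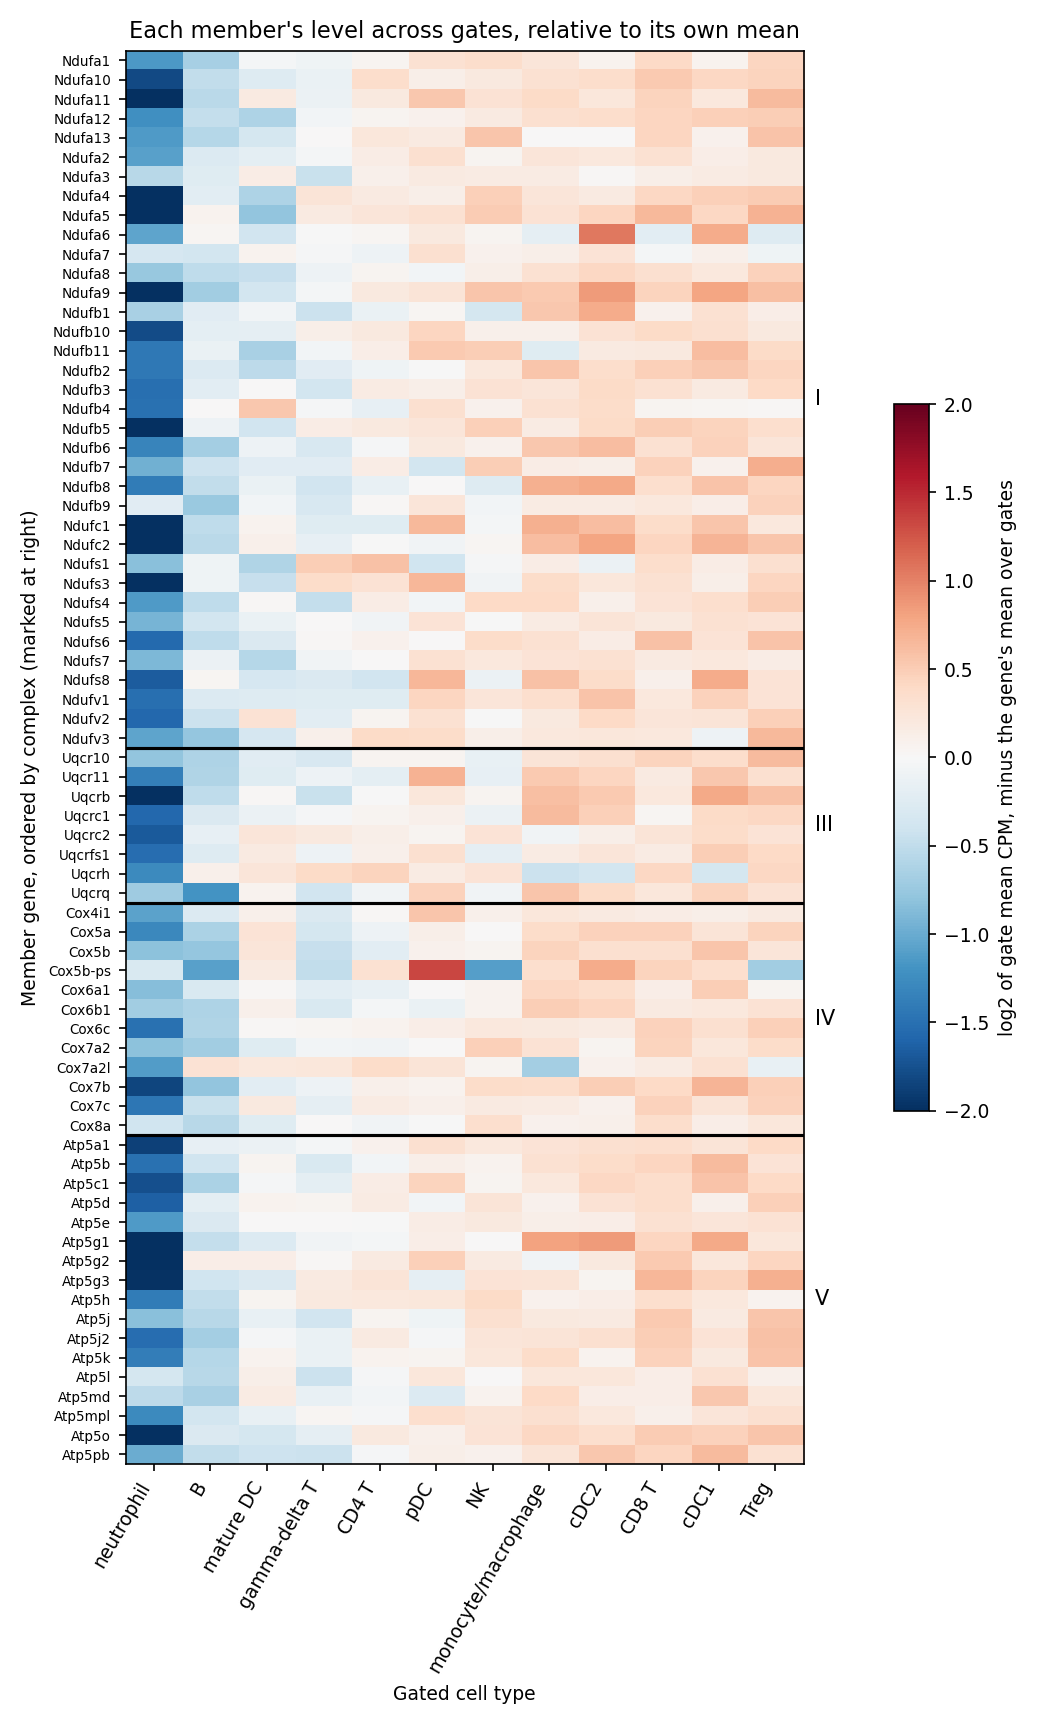
Level of members found in every gate (rows, ordered by complex) in each of the 12 gates (columns), as the log2 of the gate mean in CPM (UMIs per 1000000) minus the gene's own mean over gates. The neutrophil column is the lowest for 67 of the 78 members, and Cox7a2l (r = 0.55 with the sum of the others) and Uqcrh (r = 0.57) are among the rows that depart from the common order.

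The members that depart had patterns of their own. Cox7a2l was at 359 to 494 CPM (UMIs of the gene per 1000000 UMIs) in CD4 T cells (median 414), 332 to 488 in B cells (median 399) and 158 to 273 in monocyte/macrophages (median 194). So the B cell, low for nearly all other members, was among the high gates for Cox7a2l. Uqcrh was at 760 to 1205 CPM in CD4 T cells (median 920), 632 to 830 in B cells (median 714), 424 to 610 in monocyte/macrophages (median 492) and 209 to 346 in neutrophils (median 280). Its ranges in lymphocytes lay above those in monocyte/macrophages and neutrophils. Ndufa6 was at 532 to 628 CPM in cDC2 (median 571), against 206 to 325 in monocyte/macrophages (median 240) and 183 to 266 in mature dendritic cells (median 201). The cDC2 range lay wholly above the other 2.

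The promoters of the members were examined because the members vary together. RefSeq start sites (GRCm38.p6, an older build than the GRCm39 the submitters' processing notes name) gave a window of 250 bases before to 50 bases after the start for 64 members, and 14 members had no window, Cox4i1, Cox4i2, Atp5a1 and Uqcrb among them. The palindromic NRF1 motif, the 10 letters in capitals in the Ndufa11 sequence below, is read by a factor known for control of respiratory genes and was found in 5 of 64 windows (7.81%): those of Ndufa11, Uqcrc1, Cox6a1, Atp5g2 and Atp5k. It was in 2.24% of 10382 windows of genes with at least 100 UMIs. The YY1 motif AAGATGGC was in 10 windows (15.6%) against 5.31%, the GABP motif CCGGAAG of the ETS family in 15 (23.4%) against 20.2%, the E box CACGTG in 6 (9.38%) against 11.7% and TATAAA in 6 (9.38%) against 9.25%. All motifs were searched on both strands, and a GABP and a YY1 match can share the letters AAG. A match is a run of letters and not a shown binding site. Shown here are the 250 bases before the start of 3 members that hold the NRF1 motif, and of Uqcrh and Cox7a2l, which depart from the common order. The choice does not set motif against profile. Cox7b and Atp5c1, among the most alike profiles (r = 0.98 each), hold no NRF1 match. Of the 5 holders, Ndufa11 (0.97), Atp5k (0.97) and Uqcrc1 (0.93) lay above the median r of 0.91, and Cox6a1 (0.89) and Atp5g2 (0.88) lay below it. Whether the motif goes with the shared profile was not tested. Capitals mark NRF1 or GABP motifs. Ndufa11, an accessory complex I subunit (chr17:56717512-56717761, plus strand), has its NRF1 match from 60 bases before the start. Cox6a1, a complex IV subunit (chr5:115348959-115349208, minus strand), has it from 162 bases before and holds 1 GABP match. Atp5g2, which encodes the c subunit of the ATP synthase ring (chr15:102671048-102671297, minus strand), has it from 42 bases before. Uqcrh (chr4:116075071-116075320, minus strand) holds 1 GABP match and no NRF1 match, and Cox7a2l (chr17:83514334-83514583, minus strand) holds neither.
Ndufa11: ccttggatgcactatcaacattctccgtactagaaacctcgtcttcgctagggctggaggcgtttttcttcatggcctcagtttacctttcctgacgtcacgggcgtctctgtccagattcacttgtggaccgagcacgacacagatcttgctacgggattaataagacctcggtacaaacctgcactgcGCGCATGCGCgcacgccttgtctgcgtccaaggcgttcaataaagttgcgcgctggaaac
Cox6a1: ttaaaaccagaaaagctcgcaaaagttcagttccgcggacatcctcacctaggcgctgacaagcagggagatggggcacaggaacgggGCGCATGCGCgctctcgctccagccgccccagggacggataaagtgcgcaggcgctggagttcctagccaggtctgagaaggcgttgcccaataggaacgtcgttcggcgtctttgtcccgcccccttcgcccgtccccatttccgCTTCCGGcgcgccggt
Atp5g2: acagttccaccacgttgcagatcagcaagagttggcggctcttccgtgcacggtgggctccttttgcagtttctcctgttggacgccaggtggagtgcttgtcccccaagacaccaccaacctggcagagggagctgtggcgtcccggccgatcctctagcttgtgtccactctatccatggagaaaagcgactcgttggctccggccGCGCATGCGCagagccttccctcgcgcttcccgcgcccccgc
Uqcrh: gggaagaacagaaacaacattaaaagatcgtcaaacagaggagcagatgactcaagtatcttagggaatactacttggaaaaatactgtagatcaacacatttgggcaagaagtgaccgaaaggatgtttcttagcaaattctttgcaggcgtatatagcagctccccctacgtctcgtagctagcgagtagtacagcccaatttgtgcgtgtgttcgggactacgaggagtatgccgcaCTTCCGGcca
Cox7a2l: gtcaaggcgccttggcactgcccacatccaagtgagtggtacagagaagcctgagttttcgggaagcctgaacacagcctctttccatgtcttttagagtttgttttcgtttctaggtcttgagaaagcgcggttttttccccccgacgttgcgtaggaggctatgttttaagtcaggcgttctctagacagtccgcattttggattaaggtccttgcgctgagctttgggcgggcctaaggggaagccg

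A group of 4 alternative isoforms was unevenly spread over the cell types, with most UMIs in monocyte/macrophages. Ndufa4l2, a relative of Ndufa4 known to be induced when oxygen is low, had 165 UMIs in monocyte/macrophages, 2 in neutrophils, 1 in Treg and 0 in the other 9 gates. Zero UMIs among CD8 T cells allows a level of up to 0.0362 CPM (3 counts over the gate), against a mean of 1.21 CPM in monocyte/macrophages. The other gates with 0 UMIs were smaller, so their limits are higher. In gamma-delta T cells, NK cells and pDC the limit lies above the monocyte/macrophage mean, so absence there is not shown. Ndufa4 itself, named for complex I and now placed with complex IV, was found in every gate, at 360 to 504 CPM in CD8 T cells (median 444) and 305 to 445 in monocyte/macrophages (median 405). Cox4i2, the alternative form of the regulatory subunit Cox4i1 that is known to be favoured at low oxygen, had 732 UMIs in monocyte/macrophages (2.97 to 11.8 CPM) and at most 11 in any other gate. Cox7a1, the form known from heart and skeletal muscle, had 1029 UMIs in monocyte/macrophages (5.15 to 11.7 CPM) and 223 in CD8 T cells (0 to 3.23 CPM). Cox6b2, known from testis, had its highest mean in cDC2, at 17.2 ± 7.35 CPM (SD, n = 6), against 2.78 to 8.36 in monocyte/macrophages and 0.638 to 4.62 in CD8 T cells. Fibroblast markers were at 0 to 1.26 CPM in the monocyte/macrophage gate, endothelial markers at 8.15 to 44.1 and melanoma markers at 5.99 to 32.4. The part of RNA from cells other than leukocytes in these isoforms was not tested.

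Neutrophils were compared with monocyte/macrophages of the same 8 samples. Nearly every member was lower in neutrophils: 71 of 77 tested members were lower and 0 higher at an adjusted p under 0.05 (edgeR quasi-likelihood test with the sample as a block), where 41.2% of 10973 genes were lower and 31.8% higher. The median member change was -1.23 on the log2 scale, a level 2.34-fold lower, against -0.25 for all genes. By complex, 35 of 37 members of complex I, 8 of 8 of complex III, 12 of 15 of complex IV and 16 of 17 of complex V were lower. Ndufa9, an accessory subunit of complex I, was at 0 to 15.6 CPM in neutrophils (median 3.89) and at 53.9 to 74.9 in monocyte/macrophages (median 65.0). No sample of the first came near the second, and the log2 change was -3.06 (SE 0.23). Ndufa9 entered the test only through its level in monocyte/macrophages, so its call adds no support. Atp5g1, another gene for the c subunit of the ATP synthase ring, was at 17.9 to 74.9 CPM in neutrophils (median 51.7) and 386 to 503 in monocyte/macrophages (median 455), with a log2 change of -2.71 (SE 0.15). Uqcrb, which binds ubiquinone in complex III, was at 34.5 to 85.3 CPM (median 59.8) against 330 to 414 (median 371), a log2 change of -2.18 (SE 0.14). These genes did not overlap between the gates in any sample. Other large differences were Ndufa5 (-2.79), Ndufc2 (-2.58), Ndufc1 (-2.49) and Ndufa11 (-2.32). Cox6b2, Cox4i2 and Cox7a1, with 3 to 6 UMIs in neutrophils, are among the 71, as is Ndufa9. These 4 did not pass the filter on low counts within neutrophils alone and entered through monocyte/macrophages, where they are high, so their direction was fixed by the filter.

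The 6 tested members that were not called in neutrophils, named after their values were seen, were Ndufa7 (-0.02), Ndufb9 (0.04), Cox5b-ps, Cox7a2l (0.01), Cox8a (-0.04) and Atp5l (-0.12). The scaling decides their place. On plain CPM, Cox8a, a small complex IV subunit, was at 536 to 819 in neutrophils (median 643) and 891 to 1007 in monocyte/macrophages (median 930), without overlap. With library size alone in place of TMM factors, 76 of 77 members were lower, the member median was -1.68 and that of all genes -0.70.

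Around the complexes, most TCA cycle enzymes, mitochondrial ribosomal proteins and carriers were lower in neutrophils too, and most glycolytic genes were higher. Of the tricarboxylic acid (TCA) cycle enzymes 15 of 16 were lower, led by Idh2 (-3.63), and of the mitochondrial ribosomal proteins 72 of 78. All 8 carriers and translocases were lower, including Slc25a4 (-2.81), which exchanges ADP for ATP. Cyc1, a complex III subunit whose symbol lies outside the rule, and Cycs (-1.29), which encodes cytochrome c, were lower too. Of the mitochondrially encoded subunits 5 of 13 were lower, with a median of -0.36 against -0.25 for all genes, so the share called lower was no larger than the 41.2% of all genes. Glycolytic genes were higher in 12 of 15 cases, among them the glucose transporter Slc2a1 (1.07) and hexokinase 2, Hk2 (1.04). Cytosolic ribosomal protein genes were lower for 76 of 79, so low levels in neutrophils were not particular to mitochondrial genes, and neutrophils also held fewer UMIs per cell.

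B cells were compared with CD8 T cells. Of 73 tested members 68 were lower in B cells and 0 higher, where 30.1% of 10070 genes were lower and 23.5% higher, and the member median was -0.84 (1.78-fold lower) against -0.05 for all genes. All 17 members of complex V and all 8 of complex III were lower. Uqcrq, a small complex III subunit, was at 116 to 181 CPM in B cells (median 131) and 323 to 414 in CD8 T cells (median 358). The gates did not overlap, and the log2 change was -1.45 (SE 0.11, adjusted p = 9.2e-12). Cox7b (-1.23), Ndufa9 (-1.22), Atp5j2 (-1.22, the f subunit of the ATP synthase), Cox7a2 (-1.17), Cox5b (-1.14), Cox6c (-1.13) and Cox5a (-1.12) were among the largest differences. Ndufa9 did not pass the filter on low counts within B cells alone, so its direction was fixed by its level in CD8 T cells. Ndufs1 did not pass it within B cells either and entered this comparison through CD8 T cells. Cox7a2l (0.07) and Ndufa6 (0.20) were not called, and their levels in the 2 gates overlapped.

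The 13 mitochondrially encoded subunits went the other way: all 13 were higher in B cells than in CD8 T cells, with a median log2 change of 0.52 and the largest for mt-Nd6 (1.06), mt-Nd5 (0.84) and mt-Nd2 (0.77), which encode complex I subunits. Tfam, which packages and transcribes mitochondrial DNA, was higher in B cells (1.01), as was Myc (1.88). Glycolytic genes were lower for 11 of 15, including Gapdh and Ldha (-1.81). The CD8 T gate held 14.1 to 56.5% cycling cells and the B cell gate 0 to 2.33%. Without cycling cells 61 members were lower, and the member median was -0.57.

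CD8 T cells differed from monocyte/macrophages in single members more than in the whole set. With TMM factors 4 members were higher and 40 lower of 78, where 38.7% of 12911 genes were higher and 38.6% lower. The share of members called higher was below that of genes, and the share called lower was above it. The member median was -0.19. With library size alone, 25 were higher and 21 lower and the member median was 0.05, so the balance of directions depends on the scaling. Uqcrh, at 781 to 992 CPM in CD8 T cells (median 916), was higher than in monocyte/macrophages, where it was at 424 to 610 (0.62, SE 0.07, adjusted p = 5.6e-06). Cox7a2l (0.61), Atp5g2 (0.37) and Ndufa13 (0.18) were the other members higher in CD8 T cells. Uqcrc1, a core protein of complex III, was lower, at 62.3 to 84.4 CPM against 89.1 to 131 (-0.83, SE 0.08), as were Ndufs8 (-0.73), Ndufb1 (-0.70), Uqcrb (-0.63), Atp5g1 (-0.62) and Ndufb8 (-0.62). Atp5g1 and Atp5g2 encode the same mature c subunit, and they differed in opposite directions. Cox4i2, Cox7a1 and Cox6b2 were lower too, and they, with Ndufa4l2, passed the filter on low counts through monocyte/macrophages, where they are higher. Glycolytic genes were lower in CD8 T cells for 12 of 15, led by Hk2 (-3.04) and Slc2a1 (-2.41).

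Within CD8 T cells, those with proliferation markers were compared with the others in 7 samples. Of 73 members 55 were higher in cycling cells and 3 lower, where 27.4% of 9346 genes were higher and 25.9% lower, with a member median of 0.28. Cox7a2, the ubiquitous form of a complex IV subunit, was at 618 to 715 TMM-scaled CPM in cycling cells and at 355 to 546 in the others, without overlap (0.61, SE 0.07, adjusted p = 2.0e-06). Ndufa5 (0.69), Ndufc1 (0.64), Atp5g3 (0.64), Ndufc2 (0.61), Atp5b (0.60, the catalytic beta subunit of the ATP synthase), Ndufb8 (0.57), Atp5j (0.57), Ndufv1 (0.55, the flavin-binding subunit where NADH enters complex I) and Cox5a (0.54) were the other large differences. The 3 lower members were Cox7a2l, at 240 to 323 against 347 to 490 TMM-scaled CPM without overlap (-0.57, SE 0.07), Ndufa6, at 175 to 216 against 255 to 328 (-0.55, SE 0.06), and Uqcrh (-0.34). These 3 were lower and past the threshold under the 8 alternatives run other than leaving out samples. Cycling cells also held more mitochondrial ribosomal protein messages (56 of 78 higher) and fewer cytosolic ones (53 of 78 lower), and median UMIs per cell were 16069.5 to 24199.5 in cycling and 7187.5 to 12181 in other CD8 T cells. When each cell was thinned to 2000 UMIs, 37 members were higher and 3 lower.

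Cycling monocyte/macrophages were compared with the others in the same way, in 7 samples. In them 10 of 78 members were higher and 3 lower, where 12.6% of 11158 genes were higher and 15.6% lower, so the share called higher was that of all genes. The higher members included Ndufa5 (0.52), Ndufa12 (0.49), Atp5g2 (0.31) and Atp5g3 (0.26), and the lower ones were Ndufa1 (-0.32), Uqcrh (-0.31) and Ndufb1 (-0.21). The count rested on the scaling and on single samples: it was 31 higher and 0 lower with library size alone, 2 in all with cells thinned to 2000 UMIs, 5 without iKO3 or without iKO4 and 8 without control1. Glycolytic genes were lower in the cycling cells for 14 of 15. Whether the difference between cycling and other cells differs between CD8 T cells and monocyte/macrophages was not tested.

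Treg were compared with the other CD4 T cells. Of 73 members 39 were higher in Treg and 2 lower, where 15.6% of 8202 genes were higher and 14.9% lower, with a member median of 0.28. Uqcr10, a small complex III subunit, was at 319 to 466 CPM in Treg (median 382) and 210 to 328 in CD4 T cells (median 260), the ranges overlapped at their ends, and it was higher in 8 of 8 samples (0.51, SE 0.09, adjusted p = 0.00014). Ndufs8 (0.57), Ndufb7 (0.53), Ndufc2 (0.52), Ndufb8 (0.52), Uqcrb (0.51), Cox5a (0.49), Uqcr11 (0.45), Ndufb2 (0.45) and Atp5k (0.44) were the other large differences. Cox7a2l was lower, at 243 to 351 CPM in Treg (median 288) and 359 to 494 in CD4 T cells (median 414), without overlap (-0.56, SE 0.09), and so was Ndufa6 (-0.35). Between 16.7 and 33.6% of Treg were cycling, against 3.88 to 13.2% of CD4 T cells. Without cycling cells 7 members were higher and 3 lower, and 8 of the 41 calls were kept. With cells thinned to 2000 UMIs 6 were higher and 1 lower. In the Treg, 8 of 13 mitochondrially encoded subunits were lower, led by mt-Nd2 (-0.61), and 12 of 15 glycolytic genes were higher, led by Pkm (1.01).

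NK cells and CD8 T cells could be compared in 4 samples. Of 73 members 25 were lower in NK cells and 0 higher, where 13.3% of 9001 genes were lower and 11.2% higher, with a member median of -0.32. Ndufb8 (-0.75), Uqcr10 (-0.70), Cox5a (-0.66), Ndufb1 (-0.61), Ndufc1 (-0.58), Atp5g1 (-0.57), Atp5b (-0.55), Ndufc2 (-0.55), Atp5pb (-0.53, the b subunit of the ATP synthase stalk) and Atp5g3 (-0.51) were the largest differences. NK cells held 0 to 9.09% cycling cells. Without cycling cells 12 members were lower, with cells thinned to 2000 UMIs 8 were, and without control1 13, without iKO2 15 and without iKO1 16.

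Mature dendritic cells were compared with cDC2 in 6 samples. Complex I carried most of the difference: 24 of its 37 tested members were lower in mature dendritic cells, against 4 of 8 in complex III, 2 of 12 in complex IV and 6 of 17 in complex V. In all, 36 of 74 members were lower and 4 higher, where 29.4% of 8062 genes were lower and 29.2% higher, with a member median of -0.23. Within mature dendritic cells alone 73 members passed the filter on low counts. Any member beyond those entered with the cDC2 counts, so its direction was in part fixed by the filter. Ndufa6 was at 187 to 281 TMM-scaled CPM in mature dendritic cells and 514 to 598 in cDC2, with no overlap (-1.25, SE 0.11, adjusted p = 6.1e-08). Ndufa9 (-1.10), Ndufa5 (-1.05), Atp5g1 (-0.98), Ndufa12 (-0.96), Atp5pb (-0.82), Ndufa8 (-0.75), Ndufb2 (-0.73) and Ndufb8 (-0.72) were also lower. Uqcrh was higher, at 789 to 975 against 416 to 607 TMM-scaled CPM without overlap (0.79, adjusted p = 7.1e-06), and so were Ndufb4 (0.35), Cox7a2l (0.32) and Cox7c (0.27). TCA cycle genes were lower for 9 of 16, with Fh1 (-2.77) and Idh3a (-2.75), and so was Myc (-3.22). With cells thinned to 2000 UMIs 15 members were lower and 2 higher.

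**Figure D3:**
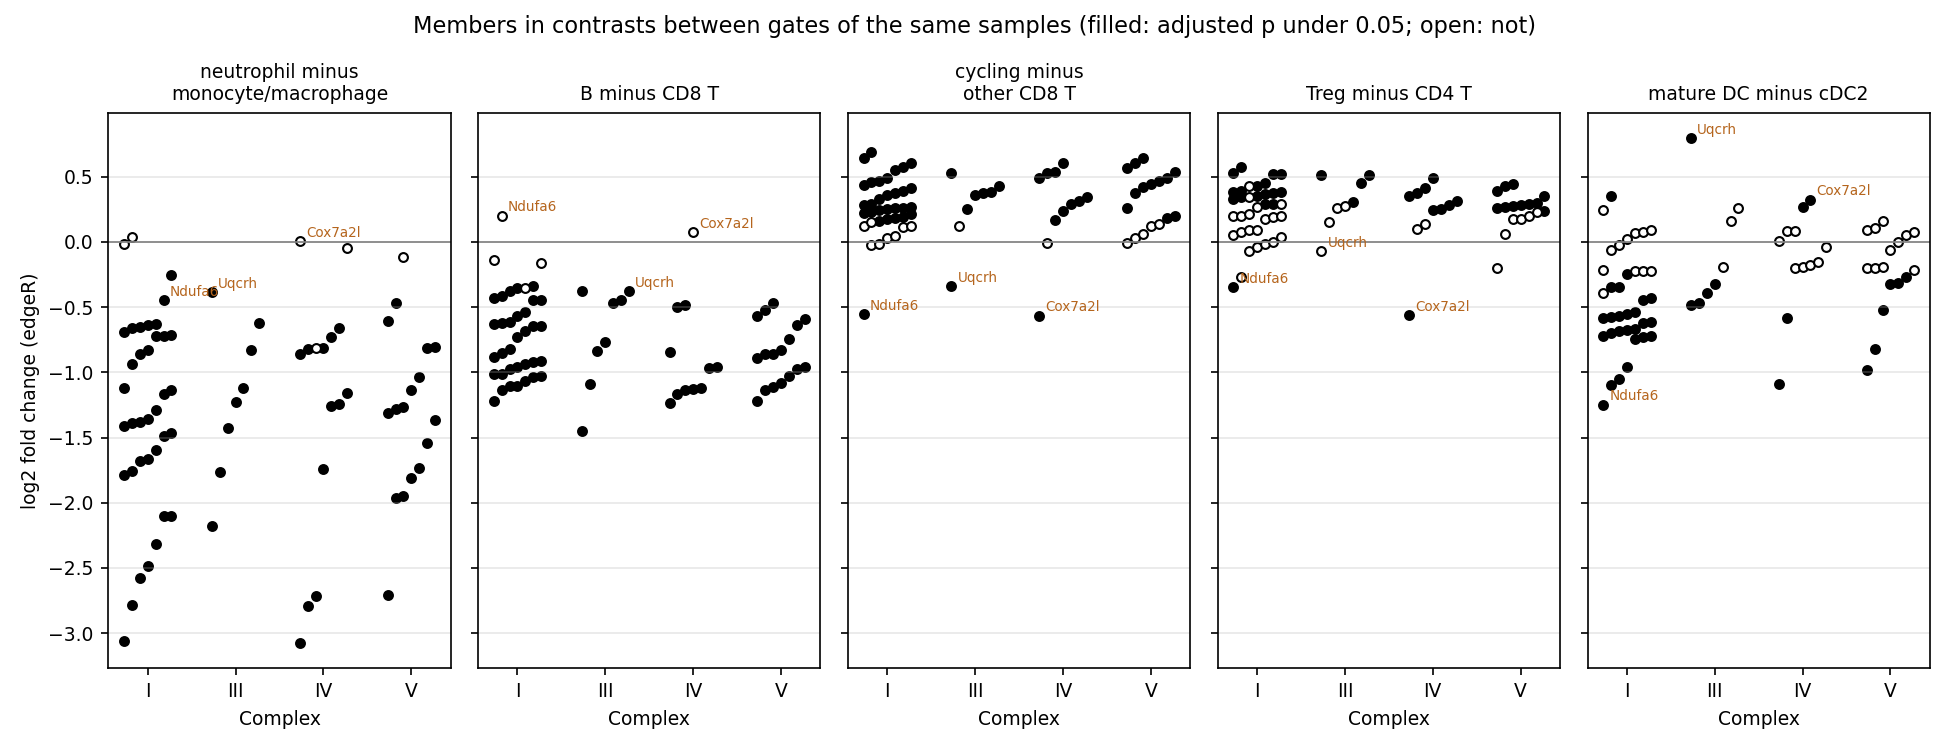
log2 fold change of each tested member (points) by complex (x axis) in contrasts between gates of the same samples, filled where the adjusted p was under 0.05. In neutrophils against monocyte/macrophages 71 of 77 members lie below 0 and are filled. Among them, Cox6b2, Cox4i2, Cox7a1 and Ndufa9 passed the filter on low counts only through monocyte/macrophages. In mature dendritic cells against cDC2 the filled points below 0 are mainly those of complex I (24 of 37).

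Genotype was compared within each gate, with 4 iKO and 4 control samples. In the whole sample, with all cells summed, 0 of 78 members were called, where 2.51% of 13452 genes were (12 members had an unadjusted p under 0.05, edgeR quasi-likelihood test). DESeq2 called 5 members there, 4 higher and 1 lower, a count not set against its own share of all genes. The member median was 0.06 on the log2 scale. In such a sum, fewer cells of a type and less RNA per cell cannot be told apart. No member was called in CD8 T cells (73 tested, background 3.43% of genes, 2 with an unadjusted p under 0.05, DESeq2 0), CD4 T cells (73 tested, 2.5%, 4, DESeq2 0), Treg (73 tested, 2.79%, 13, DESeq2 0), B cells (71 tested, 3.18%, 2, DESeq2 0), neutrophils (72 tested, 2.83%, 6, DESeq2 0) or mature dendritic cells (73 tested, 0.81%, 1, DESeq2 0). In CD8 T cells, where the replicate numbers were taken to pair the samples, the fit with the number as a block called 2 members. Both were higher, Atp5k (0.33, adjusted p = 0.0407, edgeR quasi-likelihood test) and Ndufb1 (0.30, adjusted p = 0.0470). The labels state no such pairing, so these calls rest on that assumption. The members not tested in these gates without the block were Cox4i2, Cox5b-ps, Cox6b2, Cox7a1 and Ndufa4l2, with Ndufa9 in B cells and neutrophils and Ndufs1 in B cells. The median SE of a member was 0.11 in CD8 T cells, 0.14 in CD4 T cells, 0.18 in B cells and 0.22 in neutrophils. Differences small beside these errors were therefore not detectable, and what sets the errors was not tested. NK cells, gamma-delta T cells, pDC and cDC2 had too few samples per genotype for a test.

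In monocyte/macrophages, which held most cells, 14 of 78 members fell in iKO and 1 rose, where 4.94% of 11670 genes fell and 6.19% rose. The member median was -0.14, against 0.00 for all genes, and 57 members lay below 0. The samples of the 2 genotypes did not overlap for 30 members that were lower and 3 that were higher in iKO, against 9.01% and 10.2% of genes. The changes were spread over the complexes, with 5 members of complex I, 2 of complex III, 3 of complex IV and 4 of complex V lower.

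Among the called members, the 2 that fell furthest were Cox4i2 and Cox6b2, alternative isoforms of complex IV subunits. Cox4i2 was at 5.65, 7.18, 8.10 and 12.2 TMM-scaled CPM in controls 1 to 4 and at 3.21, 3.84, 5.09 and 2.82 in iKO 1 to 4. Every iKO sample lay below every control (-1.21, SE 0.26, adjusted p = 0.0225). Cox6b2 was at 7.09, 7.52, 8.22 and 5.10 in controls and 3.52, 2.89, 3.48 and 3.82 in iKO, again without overlap (-1.01, SE 0.18, adjusted p = 0.0121). Ndufa4l2 was not called (-1.17, adjusted p = 0.342): it was at 0 to 2.88 in controls and 0.0848 to 1.64 in iKO, so the groups overlapped. These 3 genes are low throughout, with means under 10 CPM, and Cox4i2 and Ndufa4l2 are known to respond to low oxygen.

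In complex III, Uqcrh was at 616, 538, 594 and 535 CPM in controls and 435, 453, 442 and 423 in iKO (-0.38, SE 0.07, adjusted p = 0.0148). The groups did not overlap. Uqcrfs1, the Rieske iron-sulfur protein, also fell (-0.30, adjusted p = 0.0221). Uqcrc1 was the only member that rose, from 109, 90.9, 95.9 and 106 in controls to 123, 127, 119 and 124 in iKO (0.29, SE 0.08, adjusted p = 0.0419), so complex III held members that changed in both directions. Uqcrc2 (0.01) and Uqcrb (-0.23, adjusted p = 0.0642) were not called.

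In complex V, Atp5l, the g subunit of the membrane part, was at 812, 838, 840 and 847 CPM in controls and 663, 680, 687 and 680 in iKO, a gap several times the spread within either group (-0.30, SE 0.06, adjusted p = 0.0145). Atp5g2 fell from 474, 582, 497 and 540 to 362, 372, 435 and 420 (-0.40, SE 0.09, adjusted p = 0.0286), and Atp5mpl (-0.32) and Atp5g3 (-0.26) fell with it. The alpha and beta subunits that form the catalytic head, Atp5a1 (0.03) and Atp5b (0.03), and the third c subunit gene Atp5g1 (-0.13) were not called.

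In complex IV, Cox4i1 was at 1107 ± 13.8 CPM in controls and 950 ± 10.8 in iKO (SD, n = 4 each), with no overlap (-0.22, SE 0.05, adjusted p = 0.0329). Cox5a (-0.16), Cox5b (-0.05), Cox6a1 (-0.05), Cox7a1 (-0.31), Cox7a2 (0.00) and Cox7a2l (-0.38, adjusted p = 0.0652) were not called. In complex I, Ndufa6 (-0.34), Ndufb5 (-0.30), Ndufb11 (-0.29), Ndufb10 (-0.27) and Ndufa2 (-0.26), all accessory subunits, fell. The core subunits Ndufs1 (0.02) and Ndufv1 (0.01), which carry the flavin and iron-sulfur centres, were not called, nor were Ndufa4 (-0.17) and Ndufb1 (0.25).

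**Figure D4:**
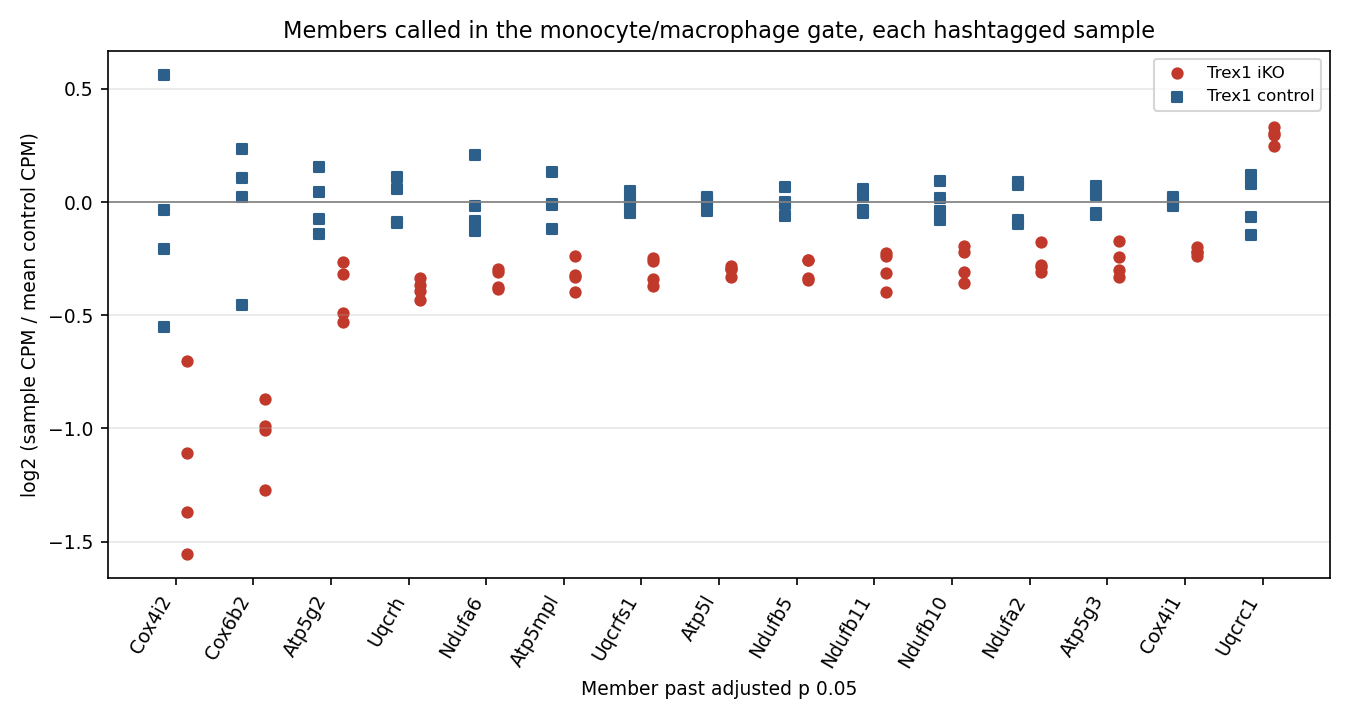
The 15 members called between genotypes in monocyte/macrophages (x axis), each sample's TMM-scaled CPM as a log2 ratio to the mean of the controls (y axis), with 4 iKO and 4 control samples by colour and marker. For Cox4i2 and Cox6b2 the iKO samples lie about 1 log2 unit below the control mean, for most others about 0.3 below, and Uqcrc1 alone lies above.

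The number of calls in monocyte/macrophages depended on single samples and on the processing. Leaving out iKO1, iKO2, control2 or control4 left 3, 3, 3 and 4 members called, leaving out control3 or iKO4 left 6 and 8, and 11 and 13 remained without iKO3 or control1. DESeq2 called 1 higher and 24 lower. Library size alone gave 2 higher and 5 lower, stricter gates 0 and 3, and no filter on low counts 1 and 5. None of these counts is set against the share of all genes called under the same alternative. The member median lay between -0.11 and -0.16 under all of these. The cell gate divides into monocytes, with Vcan and Chil3, and macrophages, with C1q genes. In the monocytes 16 of 77 members fell and 1 rose, where 4.63% of 10174 genes fell and 6.37% rose, with Uqcrh (-0.41), Cox4i2 (-1.60), Cox6b2 (-1.14), Ndufa6 (-0.48), Cox7a2l (-0.48), Atp5g2 (-0.42) and Atp5mpl (-0.40) among them and Uqcrc1 higher (0.30). The monocyte count fell to 0 with stricter gates, 8 with library size alone, 8 with no filter on low counts, 5 without iKO1, 5 without iKO2, 7 without control2 or control4 and 6 without control3. In the macrophages 0 of 77 were called, where 1.22% of genes were, with 20 at an unadjusted p under 0.05 and 3 called lower by DESeq2. The smallest adjusted p there was 0.0528, for Uqcrh (-0.37). Whether the genotype difference itself differs between monocytes and macrophages was not tested.

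Other quantities moved with genotype in the same monocyte/macrophage profiles. Cytosolic ribosomal protein messages took 1788 to 1936 UMIs per 10000 in controls and 1303 to 1582 in iKO, without overlap, and 70 of 80 such genes fell, led by Rps10 (-1.17) and Rpl24 (-0.79). The summed member share was 252, 244, 241 and 248 per 10000 in controls and 221, 221, 247 and 239 in iKO, so the genotypes overlapped. With ribosomal protein and mitochondrial genes removed before scaling, 10 members fell and 1 rose. Markers of other cell types also differed. T cell markers (Cd3d, Cd3e, Cd3g) summed to 20.4 to 28.8 CPM in control and 37.2 to 44.1 in iKO monocyte/macrophages, melanoma markers to 5.99 to 11.4 and 14.0 to 32.4, and CD8 T cell markers to 4.02 to 7.86 and 18.5 to 24.3. NK cell markers summed to 3.02 to 4.19 in controls and 6.04 to 7.56 in iKO, and cDC1 markers to 26.1 to 34.3 and 38.3 to 41.3. Mature dendritic cell markers went the other way, at 6.62 to 11.2 in controls and 4.64 to 5.79 in iKO. So did cDC2 markers, at 0.986 to 1.87 and 0.411 to 0.720. Endothelial markers, at 8.15 to 21.4 and 19.6 to 44.1, overlapped. The neutrophil markers (S100a8, S100a9, Csf3r, Cxcr2, Retnlg) summed to 276 to 679 in controls and 160 to 261 in iKO, whereas Csf3r, Cxcr2 and Retnlg alone summed to 33.4 to 52.5 and 44.2 to 59.1, with overlap. Csf1r, Adgre1, Cd68, Fcgr1 and Ms4a7, some of the markers of the gate itself, summed to 1484 to 1703 in controls and 2107 to 2605 in iKO. The larger marker set of the gate overlapped between genotypes, at 11797 to 17357 in controls and 12214 to 15278 in iKO. The C1q markers overlapped too, at 2381 to 3023 and 1985 to 2937. The monocyte markers summed to 532 to 1529 in controls and 443 to 502 in iKO. Cycling cells were 2.61 to 4.65% of control and 1.76 to 6.57% of iKO monocyte/macrophages, and without them 16 members fell and 1 rose. The part of ribosomal messages, of RNA from other cells and of the monocyte markers in the member differences was not tested.

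In cDC1, 1 of 73 members was called, where 0.894% of 6820 genes rose. Atp5k, the e subunit of the ATP synthase membrane part, was at 248, 204, 209 and 229 CPM in controls and 344, 318, 291 and 326 in iKO. All iKO samples lay above all controls (0.53, SE 0.11, adjusted p = 0.0243). The call was lost without iKO1, control2, control3 or control4, and with cells thinned to 2000 UMIs. The member median in cDC1 was 0.09. Atp5k was at 0.40 in the whole sample, 0.33 in CD8 T cells and 0.45 in B cells without being called there. In neutrophils it was at 0.26, with the genotypes overlapping, and was not called. These values come from the same 8 samples, were picked after they were seen, and leave out the other gates.

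In Treg 61 of 73 members lay below 0, with a median of -0.13, and none passed the test. The 3 lowest were Atp5g2 (-0.42, adjusted p = 0.112), Atp5g1 (-0.40, adjusted p = 0.279) and Cox7a2l (-0.37, adjusted p = 0.113). Leaving out cycling cells moved the median to -0.04. Cytosolic ribosomal protein genes fell for 46 of 78 in the same Treg profiles.

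The genotype effect in CD8 T cells was tested against that in monocyte/macrophages in 1 model. No member of 78 was called, where 0.101% of 12911 genes were, with 16 members at an unadjusted p under 0.05 and a smallest adjusted p of 0.145 (edgeR quasi-likelihood test, interaction of genotype and gate; DESeq2 was not run here). For 75 members the effect was above that in monocyte/macrophages, with a median difference of 0.22 against 0.02 for all genes. The members called in monocyte/macrophages were therefore not shown to differ from CD8 T cells.

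The rest of the pathway was read from the same fits. Of the mitochondrially encoded subunits 8 of 13 fell in CD4 T cells, with mt-Nd6 (-1.56), mt-Atp8 (-0.82), mt-Nd5 (-0.69) and mt-Nd4 (-0.56), 3 in CD8 T cells, 3 in the whole sample, 2 each in Treg and monocyte/macrophages and 1 in cDC1. In CD4 T cells they summed to 200 to 216 UMIs per 10000 in controls and 155 to 180 in iKO, without overlap, while the nuclear members summed to 200 to 220 and 209 to 221. Cytosolic ribosomal protein messages, at 2874 to 3102 in controls and 2386 to 2745 in iKO, did not overlap there either. Of 40 assembly factors tested in monocyte/macrophages 2 rose and 1 fell, shares near or below the 6.19% and 4.94% of all genes. Of the glycolytic genes 3 of 15 fell there, Hk2 (-0.70), Pdk1 (-0.65), which restrains the entry of pyruvate into mitochondria, and Gpi1 (-0.46).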

How the data were processed

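Gene counts per cell barcode were deposited as 1 matrix for each of the 8 hashtagged samples; they were made with Cell Ranger 7.1.0, per the file headers, against GRCm39, per the submitters' processing notes. Barcodes with at least 300 genes and at most 10% mitochondrial UMIs were kept, and 464 with a Scrublet score over 0.25 (2.06%) were removed as doublets. Cells were gated on marker UMIs; 92 spike-in features held 0 counts. UMIs were summed per gate and sample where a sample had at least 20 cells, with at least 3 samples per genotype for genotype tests. These sums were tested with edgeR 4.0.16 in R 4.3.3 (TMM factors, filterByExpr, quasi-likelihood F test, Benjamini-Hochberg adjustment over all genes, threshold 0.05). Contrasts between gates kept the sample as a block. DESeq2 1.42.0, other scalings and filters, thinning to 2000 UMIs per cell, stricter gates and leaving out each sample were alternatives. Plain CPM use all UMIs of a gate; TMM-scaled CPM belong to 1 fit, as do the CPM of genotype comparisons.

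Members and gene lists were chosen with earlier results of these data known. Named members are at most the 10 with the largest change past the threshold in each direction, plus a fixed set of core, isoform and c-ring genes; at most 4 genes are named per list. Ndufa6, Ndufb9 and Atp5k outside that rule were singled out after their values were seen. Same-numbered samples of the 2 genotypes correlated in their deviations at 0.15 to 0.53 in the whole sample and 0.11 to 0.54 in CD8 T cells. In monocyte/macrophages they correlated at -0.11 to 0.23, so the numbers were taken to pair samples in the first 2 only. Differently numbered samples were not correlated for comparison and the labels state no pairing, so the pairing is an assumption. Intervals and count limits cover counting error alone. 1 member is counted in the totals and not reported singly here.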

Additional observations from a re-analysis of the deposited data

Results flagged for a closer look

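In mature dendritic cells, the summed member share of iKO1 was 205.375 UMIs per 10000, set apart from the other 3 iKO samples, which lay between 190.928 and 192.893. In the same cell type, the mitochondrially encoded share of control3 was 126.068 UMIs per 10000, below the other 3 controls, which lay between 136.794 and 138.934. Each was the sample farthest from its group by a gap that took most of the group's range. Of 86 groups looked at, 2 held such a sample, and chance alone flags about 1 in 20 groups. No cause was tested.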

How the results depend on the processing

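Of 2509 counts, shares and changes of named members recomputed under an alternative, 2125 were labelled the same, 261 lost the threshold and 123 moved. Counts of calls were labelled by their size alone, so a count labelled the same can differ in direction. All 1942 changes of named members kept their direction. These members were chosen as called in the same data and mostly the same samples, so this is weak support. Medians over members are not among the 2509. In CD8 T cells against monocyte/macrophages the median went from -0.19 to 0.05 with library size alone (4 higher and 40 lower became 25 and 21). In cycling against other monocyte/macrophages it went from 0.03 to -0.01 with no filter and with thinning. Library size alone, leaving out ribosomal and mitochondrial genes, and leaving out cycling cells in gate contrasts were added after seeing the data. The cause of each move was not tested. Numbers of members called between genotypes, with the main count first, were as follows. They are not set against the share of all genes called under each alternative. In the whole sample 0 became 5 with DESeq2, 5 with thinning, 2 with library size alone and 0 to 1 when a sample was left out. In Treg 0 became 1 with thinning and 0 to 1 when a sample was left out. In monocyte/macrophages 15 became 25 with DESeq2, 6 with no filter, 3 with stricter gates, 7 with library size alone and 3 to 13 when a sample was left out. In cDC1 1 became 2 with DESeq2, 2 with no filter, 0 with thinning, 2 without cycling cells and 0 to 2 when a sample was left out. In monocytes 17 became 8 with no filter, 0 with stricter gates, 8 with library size alone and 5 to 14 when a sample was left out. In macrophages 0 became 3 with DESeq2, 3 without cycling cells and 0 to 1 when a sample was left out. With the replicate number as a block (the replicate block), 2 members were called in CD8 T cells, 5 in monocyte/macrophages, 2 in cDC1 and 6 in monocytes. The block moved no other count of members. Only in the whole sample and CD8 T cells were the numbers taken to pair samples. Between gates, cycling against other CD8 T cells went from 58 to 37 with stricter gates. Cycling against other monocyte/macrophages went from 13 to 8 with no filter, 6 in iKO alone, 1 in controls alone, 2 with thinning, 31 with library size alone and 5 to 17 when a sample was left out. NK against CD8 T cells went from 25 to 8 with thinning, 12 without cycling cells and 13 to 25 when a sample was left out. Treg against CD4 T cells went from 41 to 13 in iKO alone, 23 in controls alone, 7 with thinning and 10 without cycling cells, and mature dendritic cells against cDC2 from 40 to 17 with thinning. List genes called between genotypes ranged, when a sample was left out, over 1 to 11 in the whole sample (all samples: 11), 2 to 11 in CD8 T (10), 6 to 15 in CD4 T (18), 4 to 67 in Treg (48), 2 to 7 in B (7), 0 to 1 in neutrophils (1), 53 to 88 in monocyte/macrophages (81), 1 to 4 in cDC1 (3), 0 to 1 in mature dendritic cells (1) and 2 to 48 in macrophages (20). Without mitochondrial and ribosomal genes in the total, the mean member share per 10000 was 237.5 in B cells, 283.5 in gamma-delta T, 246.1 in mature dendritic cells, 302.7 in CD4 T, 317.7 in NK, 292.8 in monocyte/macrophages, 376.4 in CD8 T, 347.3 in Treg, 334.3 in cDC1, 324.4 in cDC2 and 313.3 in pDC. It was 201.2 in CD4 T and 235.3 in Treg with thinning, 228.0 in CD8 T and 227.6 in Treg without cycling cells, and 243.4 in Treg with stricter gates. Stricter gates gave no value where fewer than 20 cells a sample were left. Depth limits neutrophils and B cells most.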
